A study of Mus musculus with 10 samples.

Results

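Matrix metalloproteinases (MMPs), the ADAMTS proteases, the ADAMTS-like proteins and the tissue inhibitors of metalloproteinases (TIMPs) were followed in the bladders of mice lacking osteomodulin (OMD) or PRELP, a protein named for its proline- and arginine-rich end. The members were every protein-coding gene of the GENCODE vM21 annotation whose symbol is Mmp, Adamts, Adamtsl or Timp followed by its number. They came to 50 of the 55536 genes counted: 22 MMP, 19 ADAMTS, 5 ADAMTS-like and 4 TIMP genes. Mmp1a is annotated as a polymorphic pseudogene and so fell outside the set.

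MMPs are zinc-dependent endopeptidases that cut collagens, gelatin, elastin, laminin and many cell surface proteins, some of them as secreted proenzymes and others anchored in the plasma membrane. ADAMTS proteases are secreted relatives that trim procollagens and cleave proteoglycans such as versican and aggrecan, and the ADAMTS-like proteins resemble them but have no catalytic domain. TIMPs bind the active site of these enzymes, and TIMP2 also serves, together with membrane-bound MMP14, to bring proMMP2 to its activation.

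OMD and PRELP are secreted small leucine-rich proteoglycans of the extracellular matrix, and the study asked how bladder gene expression changes without each of them. PolyA RNA from homogenised bladder tissue of C57BL/6 mice was sequenced from 4 wild-type (WT) libraries, 3 OMD knockout libraries (OMD-/-) and 3 PRELP knockout libraries (PRELP-/-, a genotype field that reads PRLEP-/- in the records). Both knockouts are constitutive, in every cell of the body, with coding exons replaced by a β-galactosidase gene according to the study's methods, so no cell type was targeted. The paper speaks of bladder epithelia where the records speak of tissue, and the RNA held markers of urothelium, smooth muscle and fibroblasts alike. The paper's group sizes for this sequencing also differ from the records. It gives 3 WT and 3 PRELP-/- samples and more OMD-/- samples than the records hold. The records give neither age nor sex, and do not say whether each library came from a separate animal, so p-values here measure the spread between libraries, which may in part be technical.

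The libraries held 20391437 to 46269079 counted reads. Prelp stood at 46 to 74 counts in the PRELP-/- libraries and at 4848 to 15890 in WT, whereas Omd reached at most 12 counts in any WT library and was 0 in all 3 OMD-/- libraries, so the OMD-/- label could be checked only weakly. PRELP-/- replicate 1 stood apart from its group, with a coefficient of variation beyond counting error of 39.8% to 40.3% against the other 2 PRELP-/- libraries, which differed from each other by 3.88%. WT replicates 1 and 2 (7.77%), WT replicates 3 and 4 (6.27%) and OMD-/- replicates 2 and 3 (4.05%) were also closer to each other than the 11.3% to 16.2% between other libraries of those groups, though none agreed within sampling noise. Closeness also crossed genotype. In log2 CPM, OMD-/- replicate 1 correlated at 0.9901 and 0.9893 with PRELP-/- replicates 2 and 3. With OMD-/- replicates 2 and 3 it correlated at 0.9835 and 0.9828. The cause was not tested. Summed CPM (reads scaled to a common library size) of 4 Y chromosome genes ran from 0 to 188 in WT, from 18.5 to 120.0 in PRELP-/- and from 0.730 to 18.1 in OMD-/-, so this level was not balanced between libraries. OMD-/- replicate 1 (18.1) and PRELP-/- replicates 2 and 3 (18.7 and 18.5) lay between WT replicates 1 and 2 (188 and 163) and WT replicates 3 and 4 (0 and 0.0442). A sex therefore cannot be read from it for each library. Uroplakins and Krt20 of the urothelium summed to 7778 CPM or more in every library, and 6 smooth muscle markers to 223 to 1176 CPM.

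In WT bladder the set was dominated by a few genes. Levels between genes are compared as TPM, that is, counts divided by the length of all annotated exons and scaled to the same total in each library. Timp2 was first at 576 ± 88.4 TPM (SD, n = 4) and made up 35.6% of the summed TPM of all members. Mmp2, the gelatinase that TIMP2 helps to activate and also inhibits, followed at 423 ± 92.5 TPM with 25.9%, and the WT ranges of the pair overlapped, although Timp2 was the higher in each of the 4 libraries. The membrane-anchored Mmp14 (148 ± 35.5 TPM) and Mmp15 (127 ± 19.1 TPM) came next, with overlapping ranges, although Mmp14 was the higher of the pair in each of the 4 libraries. Timp3, which stays bound to the matrix and also inhibits ADAMTS enzymes, lay below both at 72.9 ± 17.3 TPM and above the membrane protease Mmp23 at 53.1 ± 2.8 TPM, whose WT range overlapped that of the epithelial protease Mmp28 (37.9 ± 13.8 TPM). Adamtsl5, a fibrillin-binding protein, at 25 ± 2.6 TPM, the procollagen N-proteinase Adamts2 at 20.4 ± 3.62 TPM and Adamtsl4, another fibrillin-binding protein, at 15.7 ± 1.54 TPM completed the leading 10, each with a range that overlapped that of its neighbour in this order.

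**Figure D1:**
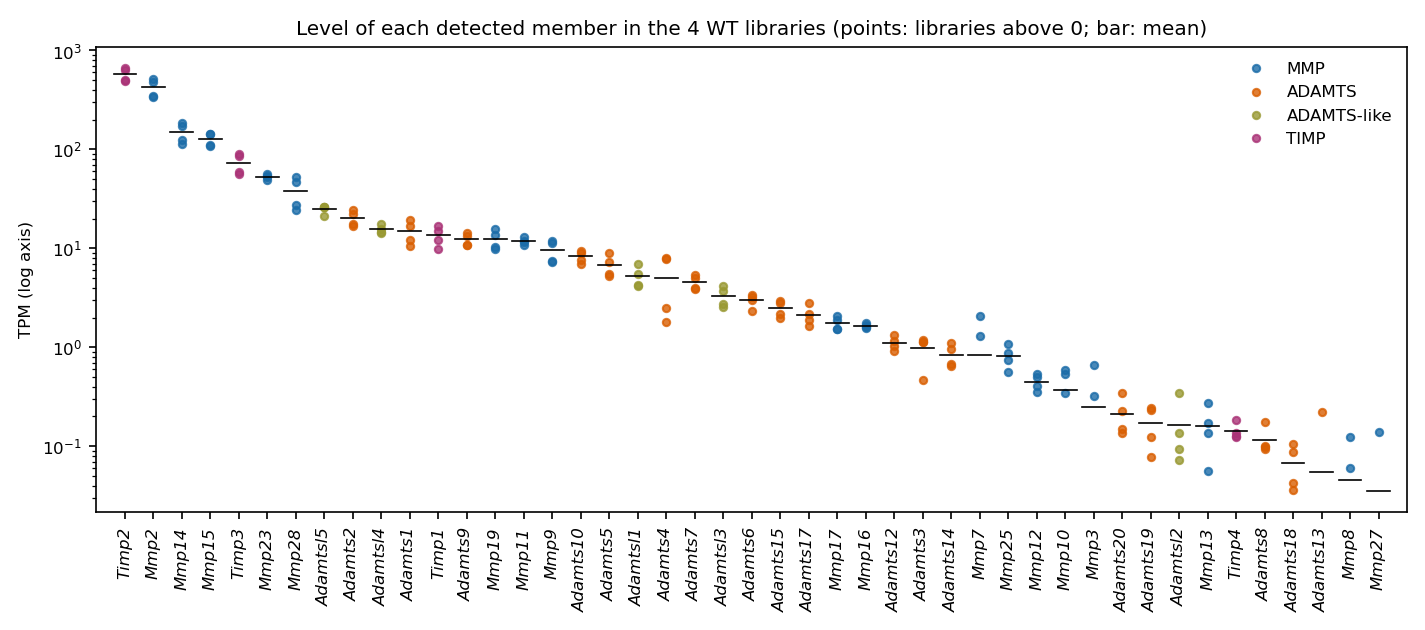
TPM (log axis) of each detected member in the 4 WT libraries, ordered by mean; points are libraries with a value above 0, bars are means, and colours are families. Timp2, Mmp2, Mmp14 and Mmp15 stand above every other member, and the levels below them fall without a clear step.

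At the other end, 5 members never exceeded 3 counts in any library: Mmp1b, Mmp20, Mmp21, Mmp24 and Adamts16. The level of 3 counts was a chosen cutoff, not one derived from the depth, and these genes are called undetected here. A further 10 members had too few reads to enter the test of OMD-/- against WT, namely Mmp3, Mmp7, Mmp8, Mmp10, Mmp13, Mmp27, Adamts8, Adamts13, Adamts18 and Timp4, and Adamtsl2 was also left out of the test of PRELP-/- against WT. Timp4, the TIMP best known from heart, stayed at 0.219, 0.305, 0.221 and 0.221 CPM in WT, 0.236, 0.254 and 0.0457 CPM in OMD-/- and 0.284, 0.32 and 0.184 CPM in PRELP-/-. Its groups overlapped, and no library passed 11 counts. Mmp13, a collagenase, had 5, 3, 5 and 1 counts in WT, 0, 3 and 4 in PRELP-/- and 3, 16 and 39 in OMD-/-. Mmp3, the stromelysin that degrades proteoglycans and activates other MMPs, had 0, 0, 4 and 8 counts in WT, 0, 2 and 1 in PRELP-/- and 6, 19 and 27 in OMD-/-. For both genes the 2 highest libraries were OMD-/- replicates 2 and 3, on few reads. Fits that kept low counts called Mmp13 higher in OMD-/- (log2 fold change 2.80 ± 0.68, edgeR without the filter, adjusted p = 0.00121, and 2.84 ± 0.88, DESeq2, adjusted p = 0.00743). With OMD-/- replicate 1 left out, Mmp13 passed the filter and was called (3.31 ± 0.64, edgeR, adjusted p = 0.00641). It passed that filter through OMD-/- replicates 2 and 3, where it is high, so this call adds no support. Those replicates may not come from separate animals. Mmp3 was called by DESeq2 (2.63 ± 1.05, adjusted p = 0.0458) and not by edgeR without the filter (2.66 ± 0.92, adjusted p = 0.0607).

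Of the 10 MMPs with too few reads for that test, 8 lay together on chromosome 9, and the others, Mmp21 and Mmp24, lay on chromosomes 7 and 2. All 9 MMP members on chromosome 9 fall within 7272514 to 7699585 (GRCm38), a stretch of 427 kb that holds Mmp13, Mmp12, Mmp1b, Mmp3, Mmp10, Mmp8, Mmp27, Mmp20 and Mmp7, and of these Mmp12 alone had enough reads to be tested in OMD-/- against WT. The upstream sequence of these genes also differed from that of the other members. RefSeq sequence for the 250 bases before the transcription start (GRCm38.p6) was given for 35 of the 50 members by symbol, and was searched on both strands for 3 motifs (no printed match overlaps one of another motif): the AP-1 motif TGAGTCA, the TATA box TATAAA and the GC box GGGCGG. The AP-1 motif was in 6 of the 9 cluster genes and in 0 of the other 26 members, against 5.16% of all 27025 genes in the table. A TATA box was in 6 of 9 cluster genes and 3 of the other 26 members (14.3% of all genes). A GC box was in 0 of 9 cluster genes and 20 of the other 26 (35.4% of all genes).

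These sequences are printed to show both promoter types, 120 bases up to the annotated start, 5′ to 3′ in the direction of the gene, with matches to the 3 motifs, on either strand, in capitals. The stromelysins Mmp3 and Mmp10 and the collagenase Mmp13 stand for the cluster, and Mmp14, Adamts1 and Adamts2 for members that were well expressed and higher in OMD-/-.
Mmp3 (chr9:7445702-7445821, plus strand): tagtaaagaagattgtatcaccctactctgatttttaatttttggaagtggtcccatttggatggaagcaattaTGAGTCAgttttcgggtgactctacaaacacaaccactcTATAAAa
Mmp10 (chr9:7502222-7502341, plus strand): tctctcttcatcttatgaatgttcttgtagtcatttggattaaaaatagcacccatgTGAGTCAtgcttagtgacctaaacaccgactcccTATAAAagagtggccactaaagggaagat
Mmp13 (chr9:7272394-7272513, plus strand): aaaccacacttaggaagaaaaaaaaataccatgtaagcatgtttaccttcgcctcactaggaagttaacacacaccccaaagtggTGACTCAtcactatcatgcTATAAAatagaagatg
Mmp14 (chr14:54431478-54431597, plus strand): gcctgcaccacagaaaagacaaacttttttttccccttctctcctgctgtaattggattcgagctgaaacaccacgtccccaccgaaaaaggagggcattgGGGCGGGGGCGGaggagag
Adamts1 (chr16:85803114-85803233, minus strand): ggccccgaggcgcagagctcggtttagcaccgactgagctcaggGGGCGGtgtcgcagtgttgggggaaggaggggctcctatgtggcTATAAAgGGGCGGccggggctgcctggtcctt
Adamts2 (chr11:50601965-50602084, plus strand): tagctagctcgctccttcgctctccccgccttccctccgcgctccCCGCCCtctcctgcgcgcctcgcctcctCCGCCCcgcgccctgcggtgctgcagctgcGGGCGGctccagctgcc
The Mmp3, Mmp10 and Mmp13 windows each hold an AP-1 match followed by a TATA box nearer the start. Mmp14 holds 2 GC boxes side by side, Adamts2 holds 3 in this stretch, and Adamts1 holds both a TATA box and 2 GC boxes. Of the 13 members higher in OMD-/- that had a sequence, 11 held a GC box in the 250 bases, 1 (Adamts1) a TATA box and 1 (Mmp12, in the second of its 2 annotated windows) the AP-1 motif. A match is a description of letters, not evidence that a factor binds there.

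The comparison of OMD-/- with WT asked which members differ in bladders without OMD. Genes were tested with edgeR's quasi-likelihood method at a threshold of 0.05 for p adjusted after Benjamini and Hochberg across the 16647 genes that entered the fit. Of the 35 members tested, 18 were higher (51.4%, where 14.3% of all genes were) and 3 were lower (15.1% of all genes were). The median log2 fold change of the tested members was 0.55, and that of all genes was -0.00. By family, 9 of 12 MMPs, 3 of 3 TIMPs, 5 of 15 ADAMTS genes and 1 of 5 ADAMTS-like genes rose, while 2 ADAMTS genes and 1 ADAMTS-like gene fell. The libraries of the groups did not overlap for 22 of 35 members (62.9%, where this held for 38.9% of all genes).

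The gelatinases rose. Mmp2 (ENSMUSG00000031740, chromosome 8, 92827291 to 92853420, plus strand) measured 478, 459.6, 358 and 337 CPM in WT, 724, 828 and 850.3 CPM in OMD-/- and 389.9, 878 and 865 CPM in PRELP-/-. Every OMD-/- library lay above every WT library, with a log2 fold change of 0.97 ± 0.13 (SE; edgeR's quasi-likelihood test, adjusted p = 0.000442). Mmp9, the gelatinase made by inflammatory and some epithelial cells, measured 11, 12, 7.88 and 7.74 CPM in WT and 15.3, 20.3 and 20.8 CPM in OMD-/-. The groups again did not overlap, and the log2 fold change was 0.96 ± 0.18 (edgeR, adjusted p = 0.00292).

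Mmp12 showed the largest change among the tested members in this comparison and the least even one. Mmp12, the macrophage elastase (ENSMUSG00000049723, chromosome 9, 7344381 to 7369499, plus strand), measured 1.06, 0.829, 1.11 and 0.752 CPM in WT and 2.12, 20.7 and 15.8 CPM in OMD-/-. OMD-/- replicates 2 and 3 carried nearly all of the signal, replicate 1 lying just above the PRELP-/- libraries at 1.53, 1.56 and 2.02 CPM. The log2 fold change was 3.77 ± 0.69 (edgeR, adjusted p = 0.00636), and it kept its call when each library in turn was left out. Over the alternatives its adjusted p ran from 6.71e-06 to 0.301, the highest being edgeR with close libraries summed, and it also missed the threshold in the fit with replicate numbers as a block (edgeR, adjusted p = 0.112). Markers of macrophages moved with it: the summed level of 7 of them was 358 to 431 CPM in WT, 408 CPM in OMD-/- replicate 1 and 747 and 768 CPM in replicates 2 and 3, and 6 of the 7 rose in OMD-/-, none being at 0. Plasma and B cell markers, 5 of 5 of them higher in OMD-/- and none at 0, summed to 6.59 to 16.4 CPM in WT, 36.0 CPM in OMD-/- replicate 1 and 182 and 179 CPM in replicates 2 and 3. The part of either list in the change of Mmp12 was not tested. In whole-tissue RNA, more cells of a type and more RNA per cell cannot be told apart.

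Most of the membrane-anchored proteases rose together. Mmp14, the main activator of proMMP2 (chromosome 14, 54431612 to 54445364, plus strand), measured 300.1, 289, 224 and 198 CPM in WT and 353, 479 and 471 CPM in OMD-/-. All OMD-/- libraries were above WT, with a log2 fold change of 0.78 ± 0.16 (edgeR, adjusted p = 0.00511). Its close relatives Mmp15 and Mmp16 changed by 0.52 ± 0.11 and 0.80 ± 0.16 on the log2 scale (edgeR, adjusted p = 0.00551 and 0.00407), Mmp16 from a level of 4.12 ± 0.382 CPM. None of Mmp14, Mmp15 and Mmp16 passed with close libraries summed or with all 10 libraries in 1 fit. The glycosylphosphatidylinositol-anchored Mmp25 rose, at 0.885 to 1.61 CPM in WT and 1.65 to 3.22 CPM in OMD-/- (log2 fold change 1.09 ± 0.31, edgeR, adjusted p = 0.0233). The other anchored protease of that kind, Mmp17, did not pass (0.54, edgeR, adjusted p = 0.0922) although its groups did not overlap. The call of Mmp25 was lost on leaving out WT replicate 3 or 4 or OMD-/- replicate 2 or 3 (edgeR, adjusted p = 0.0509 to 0.109). Mmp23, held in the membrane by its amino terminus, rose by 0.50 ± 0.08 (edgeR, adjusted p = 0.00140).

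Among the remaining secreted MMPs, Mmp19, a widely expressed enzyme of basement membrane turnover, measured 15, 13.4, 11.1 and 10.3 CPM in WT and 21.5, 25.9 and 25.6 CPM in OMD-/-. The groups were well separated, with a log2 fold change of 0.96 ± 0.14 (edgeR, adjusted p = 0.000849). Mmp19 shares 22.3% of its exonic bases with Tmem198b on the other strand, and since the strand setting of the counting is not given, reads of the pair may not be told apart. Mmp28 (log2 fold change -0.07, edgeR, adjusted p = 0.835) and Mmp11, which cuts serpins more readily than matrix (0.03, edgeR, adjusted p = 0.868), did not pass, with standard errors of 0.22 and 0.13.

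All 3 testable inhibitors rose. Timp2 (chromosome 11, 118301069 to 118355740, minus strand) measured 703, 705, 586 and 582 CPM in WT and 951, 1079 and 1092 CPM in OMD-/-. Timp3 (chromosome 10, 86300372 to 86349506, plus strand) measured 199, 197, 139 and 144 CPM in WT and 276, 285 and 279.5 CPM in OMD-/-. Timp1, the inducible inhibitor encoded on chromosome X, measured 2.97, 2.44, 4.07 and 4.42 CPM in WT and 6.59, 5.59 and 7.4 CPM in OMD-/-. For each of them the lowest OMD-/- library was above the highest WT library, and the log2 fold changes were 0.69 ± 0.10, 0.72 ± 0.13 and 0.91 ± 0.23 (edgeR, adjusted p = 0.000864, 0.00233 and 0.0132). Timp3 lies within Syn3 on the other strand and shares 21.3% of its exonic bases with it, at a mean of 212 CPM against 3.85 CPM for Syn3, and Timp1 lies within Syn1 without sharing exons. Timp1 kept its call with the level of Y chromosome genes as a covariate and lost it without OMD-/- replicate 3 (edgeR, adjusted p = 0.0672). It also lost its call with close libraries summed and with all 10 libraries in 1 fit.

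The procollagen N-proteinases, which remove the amino-terminal propeptide of fibrillar collagens, rose as a group of 3. Adamts2 (chromosome 11, 50602084 to 50807573, plus strand) measured 62.1, 58.9, 50.3 and 46.5 CPM in WT and 96.5, 118 and 117 CPM in OMD-/-. No libraries overlapped, and the log2 fold change of 1.02 ± 0.12 (edgeR, adjusted p = 0.000168) held under every alternative run. Adamts3 and Adamts14 were expressed at far lower levels, 1.53 ± 0.522 and 1.26 ± 0.325 CPM in WT, and changed by 1.17 ± 0.30 and 0.98 ± 0.33 (edgeR, adjusted p = 0.0139 and 0.0438). For Adamts14 the lowest OMD-/- library, 1.51 CPM, lay below the highest WT library, 1.61 CPM. Its call was lost on leaving out WT replicate 1, 3 or 4 or OMD-/- replicate 2 or 3 (edgeR, adjusted p = 0.0517 to 0.173), and that of Adamts3 on leaving out OMD-/- replicate 2 (0.0541) or 3 (0.0571).

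Of the proteoglycan-cleaving ADAMTS genes, Adamts1 rose, at 17 to 28.1 CPM in WT and 30.5 to 45 CPM in OMD-/- (log2 fold change 0.83 ± 0.19, edgeR, adjusted p = 0.00955), as did Adamts15, at 6.28 to 8.37 CPM in WT and 11.5 to 12.8 CPM in OMD-/- (0.68 ± 0.14, edgeR, adjusted p = 0.00558). Neither Adamts1 nor Adamts15 passed with close libraries summed or with all 10 libraries in 1 fit. Adamts4, an aggrecanase, measured 10.2, 10.9, 2.61 and 3.54 CPM in WT and 12.7, 21.7 and 20.7 CPM in OMD-/-. Every OMD-/- library was above WT, but the WT libraries fell into a high and a low pair and the log2 fold change of 1.42 ± 0.50 did not pass (edgeR, adjusted p = 0.0722). Adamts5, Adamts9 and Adamts20 did not pass, with log2 fold changes of 0.20, 0.31 and -0.61 ± 0.58 (edgeR, adjusted p = 0.477, 0.0572 and 0.460), and neither did Adamts7, Adamts12, Adamts17 and Adamts19, at -0.29 to 0.46 (edgeR, adjusted p = 0.160 to 0.860).

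The 2 ADAMTS genes that fell are a pair of paralogs tied to fibrillin microfibrils. Adamts10 (ENSMUSG00000024299, chromosome 17, 33524204 to 33553782, plus strand), mutated in a form of Weill-Marchesani syndrome, measured 15.6, 17.8, 22.7 and 23.2 CPM in WT and 5.13, 5.76 and 5.43 CPM in OMD-/-. Every OMD-/- library was below every WT library, and the log2 fold change was -1.86 ± 0.17 (edgeR, adjusted p = 4.48e-05). Adamts6 (ENSMUSG00000046169, chromosome 13, 104287835 to 104496695, plus strand) measured 4.94, 6.63, 7.92 and 7.39 CPM in WT and 1.79, 3.01 and 2.78 CPM in OMD-/-, again without overlap, with a log2 fold change of -1.40 ± 0.25 (edgeR, adjusted p = 0.00208). The 6 smooth muscle markers summed to 1176 and 1036 CPM in WT replicates 3 and 4, 311 and 296 CPM in WT replicates 1 and 2 and 355 to 705 CPM in OMD-/-. None of them was at 0 in all libraries and 0 of 6 passed, where 29.4% of all genes did. Smtn, a smooth muscle cytoskeletal protein gene, was lower in every OMD-/- library (39.8 to 41.1 CPM) than in any WT library (42.9 to 46.3 CPM), with a log2 fold change of -0.16. The other markers overlapped WT, and Acta2 had a log2 fold change of 0.05. The part of these 6 markers in the decrease was not tested.

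The fibrillin-binding ADAMTS-like genes were split. Adamtsl5 fell, with WT libraries at 27.2 to 37.7 CPM and OMD-/- libraries at 24.3 to 27.1 CPM (log2 fold change -0.40 ± 0.12, edgeR, adjusted p = 0.0327), and Adamtsl4 rose, at 17.9 to 21 CPM in WT and 22.8 to 29 CPM in OMD-/- (0.42 ± 0.11, edgeR, adjusted p = 0.0196). Adamtsl1, Adamtsl2 and Adamtsl3 did not pass, with log2 fold changes of 0.55, 0.69 ± 0.59 and 0.33 (edgeR, adjusted p = 0.0632, 0.415 and 0.337). The call of Adamtsl5 was lost on leaving out any 1 library other than WT replicate 1 (edgeR, adjusted p = 0.0519 without WT replicate 2 to 0.112 without OMD-/- replicate 1), and that of Adamtsl4 without OMD-/- replicate 3 (0.111).

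**Figure D2:**
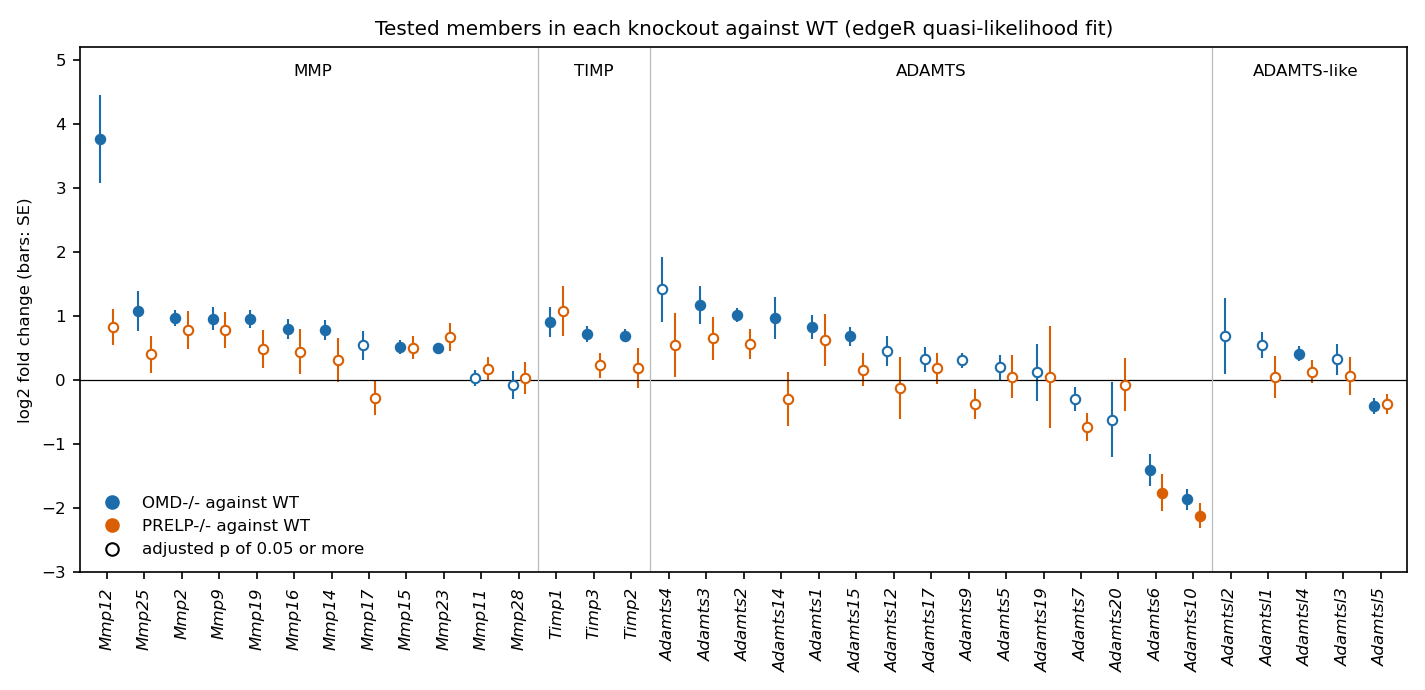
log2 fold change (bars, SE) of each tested member in OMD-/- and PRELP-/- against the same 4 WT libraries, grouped by family; filled points passed an adjusted p of 0.05. In OMD-/- 18 members were higher and 3 lower, and in PRELP-/- Adamts10 and Adamts6 alone passed.

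The fibroblast list moved with the increases in OMD-/-, mainly through its fibrillar collagens. The summed level of its 7 genes was 8148 to 9310 CPM in WT, 17457 to 21279 CPM in OMD-/-, 9857 CPM in PRELP-/- replicate 1 and 18943 and 19351 CPM in PRELP-/- replicates 3 and 2, and 4 of the 7 rose in OMD-/- with none at 0. Col1a1, Col1a2 and Col3a1 made up 5435 to 7297 CPM of this in WT and 14660 to 18121 CPM in OMD-/-, the other 4 genes 1853 to 2713 and 2797 to 3158 CPM. Of those 4, Pdgfra rose (log2 fold change 1.12), while Dcn (0.33), Lum (0.03) and Dpt (-0.66) did not pass (edgeR, adjusted p = 0.000736, 0.115, 0.955 and 0.334). Markers of neutrophils, cells known for their Mmp8, Mmp9 and Mmp25, summed to 0.424 to 2.10 CPM in all 10 libraries, with Ly6g at 0 in each. Other lists also summed higher in every OMD-/- library than in any WT library. Endothelium summed to 351 to 408 CPM against 143 to 309 CPM in WT. Umbrella and intermediate urothelium summed to 9900 to 13475 against 7778 to 9494 CPM, and basal urothelium to 3135 to 4321 against 2374 to 3092 CPM. The sums of macrophage, smooth muscle, mast cell, skeletal muscle, adipose and neutrophil lists overlapped WT. The part of the fibroblast level or of any other list in these results was not tested. Fewer passed when all 10 libraries shared 1 fit (10 members, with 14.7% of all genes called) or when close libraries were summed (9 members, with 9.06% of all genes called). More passed with DESeq2 (25 of 48 members, with 16.8% of all genes called) and limma-voom (26 members, 43.3%). With the level of Y chromosome genes as a covariate 23 members passed (38.9%).

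The comparison of PRELP-/- with the same WT libraries gave fewer calls. Of 34 members tested, 0 were higher (1.4% of all 16581 genes were) and 2 were lower (5.89% of all genes were), the pair Adamts10 and Adamts6. An unadjusted p under 0.05 was reached by 11 members (32.4%, where 26.7% of all genes reached it). The libraries of the groups did not overlap for 7 of 34 members (20.6%, where this held for 30.0% of all genes), namely Adamts3, Mmp12, Mmp15 and Mmp23 above WT and Adamts6, Adamts7 and Adamts10 below it. The median log2 fold change was 0.18 for the members and 0.02 for all genes. By other tools, DESeq2 called 6 members (8.19% of all genes) and limma-voom with sample quality weights called 24 (42.0% of all genes).

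Adamts10 measured 5.11, 4.61 and 4.22 CPM in the PRELP-/- libraries, all below the WT range of 15.6 to 23.2 CPM and near the OMD-/- range of 5.13 to 5.76 CPM. The log2 fold change was -2.11 ± 0.20 (edgeR, adjusted p = 0.000730). Adamts6 measured 1.36, 1.96 and 2.66 CPM, below the WT range of 4.94 to 7.92 CPM, with a log2 fold change of -1.75 ± 0.28 (edgeR, adjusted p = 0.00932). Both were called with any single library left out, including PRELP-/- replicate 1, and neither was with close libraries summed (edgeR, adjusted p = 0.104 for Adamts10 and 0.228 for Adamts6, the highest over the alternatives, which began at 1.00e-17 and 1.84e-06). With replicate numbers as a block Adamts10 passed and Adamts6 just missed the threshold (-1.74 ± 0.25, edgeR, adjusted p = 0.0514). Smooth muscle markers summed to 223 to 244 CPM in PRELP-/-, below every WT library (296 to 1176 CPM), with 0 of 6 passing (7.29% of all genes did). The part of these markers in the decrease of the pair was not tested. Since the knockouts share their WT libraries, the fall in PRELP-/- is not independent of that in OMD-/-.

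**Figure D3:**
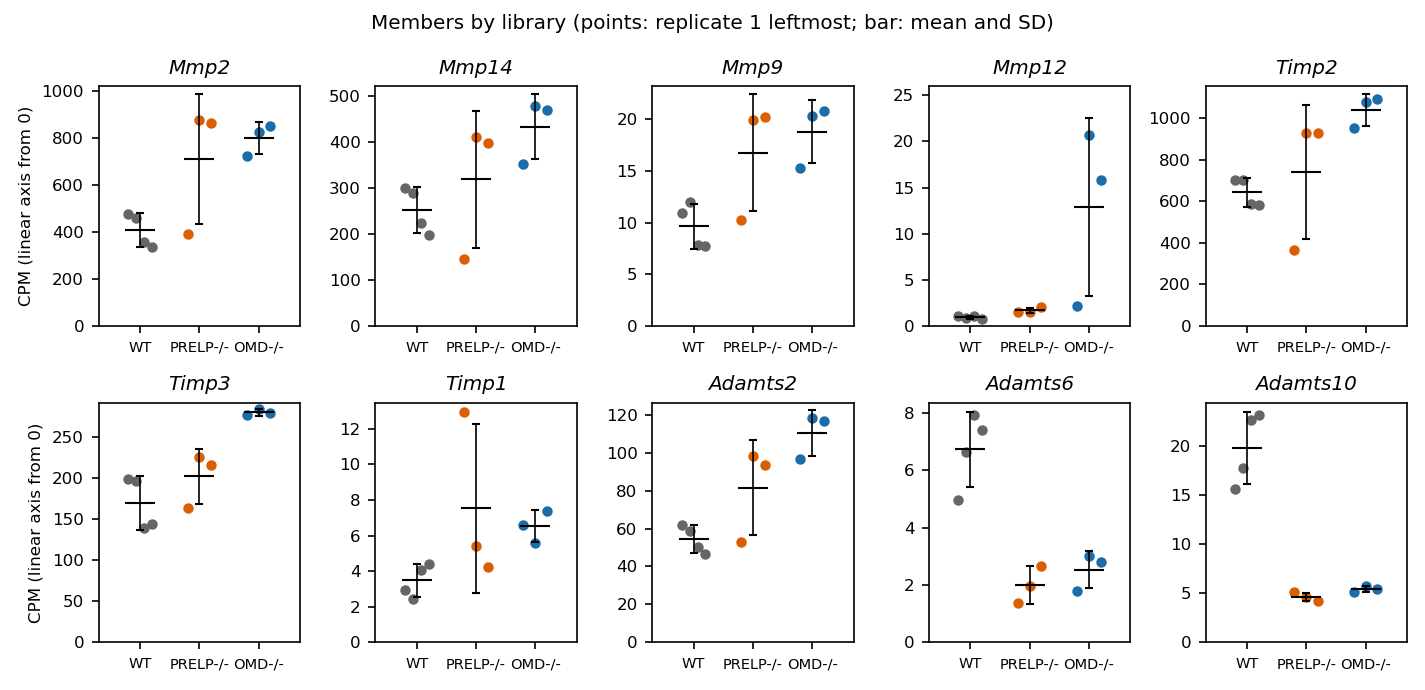
CPM of 10 members in each library (linear axis from 0; points run from replicate 1 at the left; bars, mean and SD). Adamts6 and Adamts10 sit below WT in all 6 knockout libraries, Mmp12 is high in OMD-/- replicates 2 and 3, and PRELP-/- replicate 1 sits at or below the other PRELP-/- libraries for 6 of the 7 remaining members, Timp1 being the exception.

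For 10 other members the call depended on PRELP-/- replicate 1. Mmp2 measured 389.9, 878 and 865 CPM in PRELP-/-, replicate 1 falling inside the WT range and replicates 2 and 3 above it (log2 fold change 0.79 ± 0.29, edgeR, adjusted p = 0.135). Timp2 measured 368, 928 and 928 CPM, replicate 1 being below every WT library and the others above them (0.19 ± 0.31, edgeR, adjusted p = 0.727), and without replicate 2 or 3 its log2 fold change was -0.00. Mmp14 measured 147, 411 and 399 CPM, with the same division (0.32 ± 0.34, edgeR, adjusted p = 0.581). Of the 18 members higher in OMD-/-, 16 were lower in PRELP-/- replicate 1 than in replicates 2 and 3, the others being Mmp23 and Timp1. The share of all genes that did so was not counted. Replicate 1 differed from replicates 2 and 3 by 39.8% and 40.3% over the genes compared, so the count is no result about the members. Without replicate 1, 12 members passed, 10 of them higher (28.6% of 35 tested, where 10.7% of all genes were higher): Mmp2, Mmp9, Mmp14, Mmp15, Mmp16, Mmp19, Mmp23, Timp2, Adamts1 and Adamts2. In that fit Mmp2 had a log2 fold change of 1.11 ± 0.14 (edgeR, adjusted p = 0.00144) and Timp2 one of 0.54 ± 0.10 (edgeR, adjusted p = 0.00676). It left PRELP-/- replicates 2 and 3 alone in their group, which differed by 3.88% and may not come from separate animals. Its p-values may therefore measure a largely technical spread, and the fit cannot show which of the PRELP-/- libraries is typical.

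Timp1 went the other way. It measured 12.9, 5.41 and 4.22 CPM in PRELP-/-, replicate 1 being the highest of all 10 libraries, and replicate 3 lay within the WT range (1.08 ± 0.39, edgeR, adjusted p = 0.123). Mmp23 was likewise highest in replicate 1, at 84.2, 45.6 and 44 CPM, yet all 3 libraries were above WT (0.67 ± 0.22, edgeR, adjusted p = 0.100). Mmp12 measured 1.53, 1.56 and 2.02 CPM, each library above the WT range of 0.752 to 1.11 CPM, with a log2 fold change of 0.84 ± 0.28 that did not pass (edgeR, adjusted p = 0.103). Timp3 (0.23 ± 0.20, edgeR, adjusted p = 0.478), Adamtsl5 (-0.37, edgeR, adjusted p = 0.174), Adamtsl4 (0.13, edgeR, adjusted p = 0.674) and Mmp28 (0.04, edgeR, adjusted p = 0.944) did not pass either. Adamts7, which cleaves cartilage oligomeric matrix protein, lay below WT in all 3 libraries at 3.8 to 6.17 CPM against 7.21 to 9.51 CPM (-0.73 ± 0.22, edgeR, adjusted p = 0.0778).

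**Figure D4:**
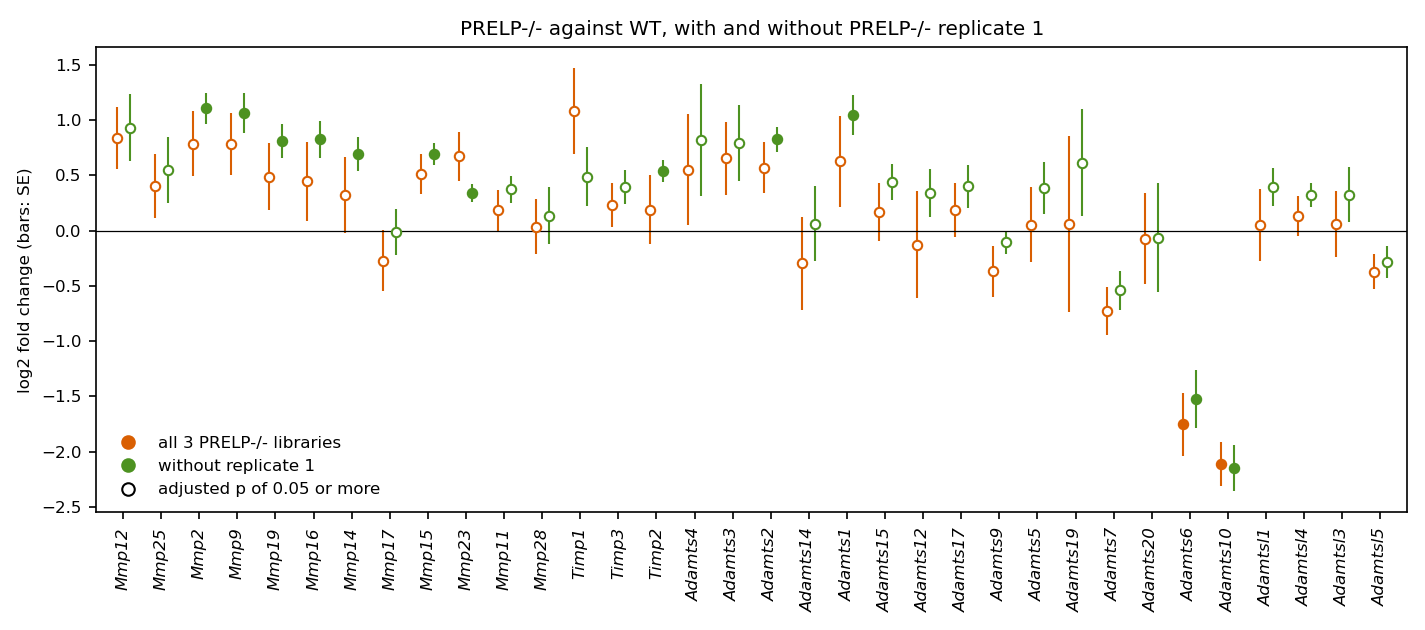
log2 fold change (bars, SE) of the tested members in PRELP-/- against WT with all 3 PRELP-/- libraries and without replicate 1; filled points passed an adjusted p of 0.05. Adamts6 and Adamts10 passed in both fits, and 10 members passed as higher only in the fit without replicate 1.

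Compared directly, the knockouts gave no call among the members. Of 35 tested in PRELP-/- against OMD-/-, 0 passed with edgeR's quasi-likelihood test (0.00633% of all 15805 genes did, that is, 1 gene). With the replicate number as a block, 0 members and 43 of all genes passed. At an unadjusted p under 0.05 there were 6 (17.1%, where 4.51% of all genes reached it): Mmp12, Mmp17, Timp3, Adamts4, Adamts9 and Adamts14. DESeq2 called 1 member, Mmp12 (0.304% of all genes), and limma-voom called 6 (6.39% of all genes). The libraries of the knockouts did not overlap for 10 of 35 members (28.6%, where this held for 15.1% of all genes), each of them lower in PRELP-/-. In all, 28 of 35 members had the lower value in PRELP-/-, where 49.8% of all genes had the higher value there. However, the direction of 22 of 35 turned under at least 1 alternative. Except for Adamtsl5 and Mmp15, each of the 22 turned with the level of Y chromosome genes as a covariate. The median log2 fold change over all 35 was -0.34 (-0.00 for all genes), or -0.16 without PRELP-/- replicate 1.

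Among the tested members the largest difference between the knockouts was in Mmp12, at 1.53 to 2.02 CPM in PRELP-/- and 2.12 to 20.7 CPM in OMD-/- (log2 fold change -2.92 ± 0.76, edgeR, adjusted p = 0.690). Over the alternatives its adjusted p ran from 0.00294 (DESeq2) to 0.9996: it passed once OMD-/- replicate 1 was left out (-3.43 ± 0.24, edgeR, adjusted p = 0.0184), and it shrank to -0.35 ± 0.74 with the level of Y chromosome genes, highest in replicate 1 among the OMD-/- libraries, as a covariate. Leaving out replicate 1 kept only OMD-/- replicates 2 and 3, which differed by 4.05% and may not come from separate animals. Timp3 was 164 to 226 CPM in PRELP-/- and 276 to 285 CPM in OMD-/-, with no overlap (-0.48 ± 0.17, edgeR, adjusted p = 0.690). Mmp2 (-0.17 ± 0.33, edgeR, adjusted p = 0.812), Mmp15 (0.01 ± 0.21, edgeR, adjusted p = 0.987) and Adamts6 (-0.34 ± 0.34, edgeR, adjusted p = 0.697) overlapped between the knockouts. Adamts10 was slightly lower in every PRELP-/- library than in any OMD-/- library (-0.24 ± 0.17, edgeR, adjusted p = 0.690). These standard errors are too wide to detect small differences, so a missed threshold does not show that the knockouts are alike.

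The balance of inhibitors and proteases was described from TPM, without a test. TIMPs made up 40.9 ± 0.926% (SD, n = 4) of the summed TPM of the members in WT, 39.9 ± 0.135% (n = 3) in OMD-/- and 35.0 ± 1.77% (n = 3) in PRELP-/-. The PRELP-/- libraries ran from 33.0% to 36.2%, below all WT libraries (40.2% to 42.2%), and this included replicate 1 with the lowest share. MMPs made up 50.8 ± 1.61% in WT, 53.6 ± 0.305% in OMD-/- and 58.7 ± 1.57% in PRELP-/-. Within each library the TPM ratio of Mmp2 to Timp2 was 0.785, 0.753, 0.708 and 0.669 in WT, 0.880, 0.887 and 0.900 in OMD-/-, and 1.23, 1.09 and 1.08 in PRELP-/-. All OMD-/- libraries lay above WT and all PRELP-/- libraries above OMD-/-, a pattern chosen for description after its values were seen. The ratio of Mmp14 to Timp2 overlapped across the groups, at 0.223 to 0.279 in WT, 0.243 to 0.290 in OMD-/- and 0.261 to 0.290 in PRELP-/-.

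**Figure D5:**
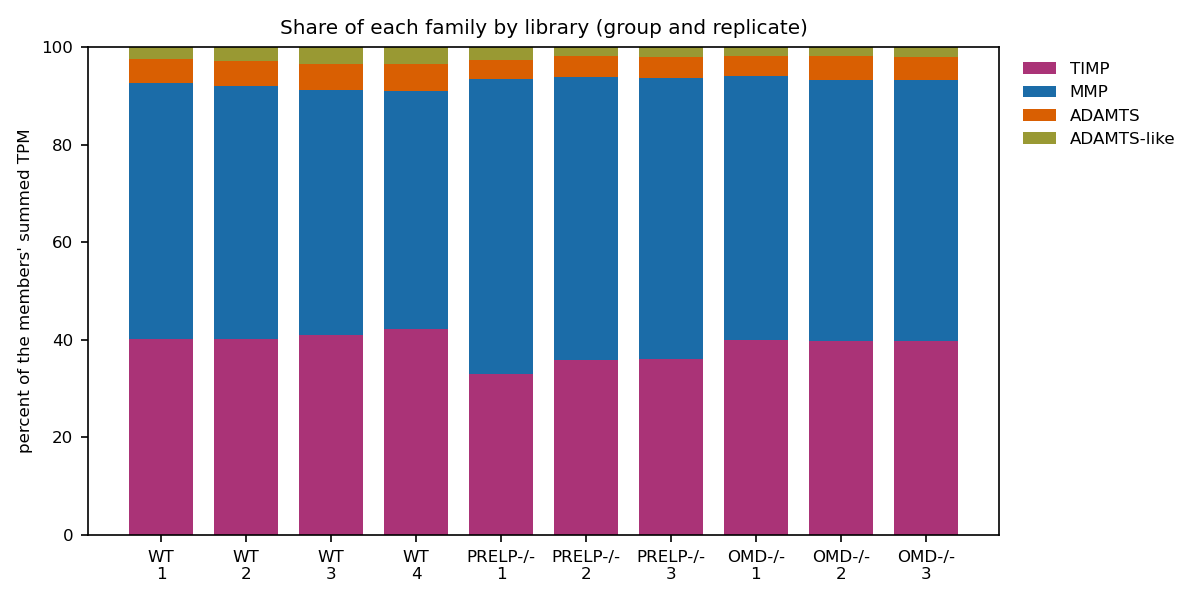
Share of the summed TPM of the members held by each family in each library (stacked bars to 100 percent). The TIMP share is 33.0% to 36.2% in the PRELP-/- libraries and 39.8% to 42.2% in the WT and OMD-/- libraries.

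Genes that act beside these proteases were counted from lists. The medians of log2 fold change over the tested genes of a list stand beside -0.00 for all genes in OMD-/- and 0.02 in PRELP-/-, and the counts beside 14.3% higher and 15.1% lower of all genes in OMD-/- and 1.4% and 5.89% in PRELP-/-. Of 13 tested matrix substrates (median 1.04), 9 rose and 0 fell in OMD-/-, led by the type IV collagen chains Col4a1 (log2 fold change 1.33 ± 0.10) and Col4a2 (1.22 ± 0.10) of basement membrane and the fibrillar collagens Col1a2 (1.43 ± 0.12) and Col3a1 (1.21 ± 0.11), edgeR adjusted p = 1.81e-05, 2.64e-05, 2.56e-05 and 4.63e-05. In PRELP-/- 2 of 14 rose (median 0.57), Col1a1 (1.31 ± 0.28) and Col1a2 (1.13 ± 0.27), edgeR adjusted p = 0.0263 and 0.0397. Several of these collagens are also on the fibroblast list above.

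Of 11 tested regulators of these proteases, 4 rose and 0 fell in OMD-/- (median 0.47). They were Pcolce, the enhancer of procollagen C-proteinase (1.14 ± 0.10), the MMP2-binding thrombospondin Thbs2 (0.75 ± 0.09), the MMP inducer Bsg (0.50 ± 0.09) and the membrane-anchored MMP inhibitor Reck (0.60 ± 0.11), edgeR adjusted p = 2.80e-05, 0.000200, 0.00181 and 0.00298. Pcolce alone of this list rose in PRELP-/- (list median 0.14; Pcolce 0.71 ± 0.15, edgeR, adjusted p = 0.0236). In the plasminogen system, 3 of 8 tested genes (median 0.27) rose (37.5%) and 1 fell (12.5%) in OMD-/-, with the activators Plat (0.56 ± 0.11) and Plau (0.41 ± 0.08) and the plasminogen-binding Anxa2 (0.39 ± 0.11) higher and the plasminogen receptor Plgrkt lower (-0.53 ± 0.09), edgeR adjusted p = 0.00310, 0.00371, 0.0175 and 0.00215, and 0 of 8 passed in PRELP-/- (median -0.13).

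Of 14 tested relatives in the metzincin clan, 3 rose and 1 fell in OMD-/- (median 0.22), and 1 fell in PRELP-/- (median -0.17). The shares called, 28.6% and 7.14%, were near those of all genes, 29.4% and 7.29%, so the counts are no result about the list. Pappa, a protease of IGF-binding proteins (1.63 ± 0.31), Adam23 (0.78 ± 0.16) and Adam19 (0.57 ± 0.16) were higher, edgeR adjusted p = 0.00513, 0.00619 and 0.0197. Adam33 fell in OMD-/- (-2.60 ± 0.28) and in PRELP-/- (-2.83 ± 0.47), edgeR adjusted p = 0.000138 and 0.0107. In PRELP-/- against OMD-/-, 0 genes of these 4 lists passed.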

How the data were processed

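The deposited files held raw counts of reads per gene, 1 file per library, made by the authors with featureCounts. Submitters' notes name bcl2fastq, STAR 2.5.2b and GRCm38 (and hg38), while the file headers point to HISAT2 alignments; the strand setting and any use of the molecular identifiers in the adapters are not given in the sources used here. Libraries were prepared from polyA RNA with a strand-specific kit. The authors' own DESeq2 comparisons (fold changes and p-values) were not used. All 55536 Ensembl identifiers matched GENCODE vM21.

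Groups came from the sample titles. Each comparison was fitted on its own libraries with edgeR 4.0.16 (R 4.3.3): TMM scaling, filterByExpr (minimum count 10), robust glmQLFit, 2-sided glmQLFTest and Benjamini-Hochberg adjustment over all genes tested, with a threshold of 0.05. CPM used TMM factors over all 10 libraries; TPM used the union of exons. Scripts were tested on simulated data. Genes that never exceeded 3 counts were called undetected. Named were all TIMPs, the 10 members highest in WT by TPM, every member past the threshold, the 3 largest changes short of it per knockout, and up to 4 genes per list by adjusted p; further members are named where their families are described. The members and lists were chosen with earlier results of these data known. Deviations from group means correlated between PRELP-/- and OMD-/- libraries of the same replicate number (0.303, 0.181 and 0.148). Between a knockout and WT these correlations ran from -0.0998 to 0.137. Libraries of unlike numbers were not compared, so the values cannot show that replicate numbers pair the libraries. Alternatives were median-of-ratios scaling, no filter, DESeq2 1.42.0, limma-voom (limma 3.58.1), 1 fit of all libraries, a replicate block, a Y chromosome covariate, summed close libraries, each library left out, and, for TPM, the longest transcript.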

Additional observations from a re-analysis of the deposited data

Results flagged for a closer look

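Among the 35 members tested in OMD-/- against WT, Adamts3, a procollagen N-proteinase, had a WT library far from the others. WT replicate 4 measured 0.752 CPM and the other 3 WT libraries 1.75 to 1.86 CPM, so that the gap made up 0.898 of the WT range. Chance sets 1 group in about 20 apart in this way, and this was the single case found.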

How the results depend on the processing

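No called member changed direction under any alternative run, while 3 of 14 members not called in OMD-/- against WT, 10 of 32 in PRELP-/- against WT and 22 of 35 in PRELP-/- against OMD-/- did so under at least 1. Percentages beside the counts that follow are the shares of all genes called in the same fit. In OMD-/- against WT, 21 members passed (29.4%). DESeq2 called 25 (16.8%), limma-voom 26 (43.3%) and the fit with the Y chromosome covariate 23 (38.9%). With all 10 libraries in 1 fit 10 passed (14.7%), and with close libraries summed 9 (9.06%). Mmp2, Mmp9, Mmp19, Timp3, Adamts2, Adamts6 and Adamts10 passed in both of these fits. Mmp14, Mmp15, Mmp16, Timp1, Adamts1, Adamts14, Adamts15, Adamtsl4 and Adamtsl5 passed in neither. Leaving out single libraries gave 15 to 23 (17.2% to 29.5%). In PRELP-/- against WT, 2 passed (7.29%). DESeq2 called 6 (8.19%), limma-voom 24 (42.0%) and 1 fit of all libraries 4 (14.7%). The replicate block called 1 (0.694%), and summing close libraries 0 (0.0709%). Leaving out single libraries gave 2 to 12 (2.77% to 22.2%), the 12 being without PRELP-/- replicate 1. In PRELP-/- against OMD-/-, 0 passed (0.00633%). DESeq2 gave 1 (0.304%), limma-voom 6 (6.39%), and leaving out single libraries 0 to 1 (0.00615% to 0.221%). The replicate block kept 16 members in OMD-/- against WT (21.1%), without Mmp12, Mmp25, Adamts14, Adamtsl4 and Adamtsl5. It kept Adamts10 without Adamts6 in PRELP-/- against WT. In PRELP-/- against OMD-/- it called 0 (0.272%) and so changed no member's call. With the longest transcript as length, the TIMP share was 38.1% for WT, 37.3% for OMD-/- and 32.9% for PRELP-/-, while leaving out single libraries gave 40.5% to 41.1%, 39.8% to 39.9% and 34.4% to 36.0%. Without the filter 48 members entered the test of OMD-/- against WT, and Mmp13 and Adamts9 joined the calls.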
